A study of Mus musculus with 4 samples.

Results

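Glycolysis breaks glucose down to pyruvate and lactate, and the hypoxia response is the program that hypoxia-inducible factors switch on when oxygen is short. The 40 genes described here, of 28074 symbols in the table, were a named list matched by symbol: 26 act in glucose uptake, glycolysis, lactate export or the control of pyruvate entry into mitochondria, and 14 sense oxygen or respond to its lack. All 40 were found in the table, and 36 passed the filter on low values, an average level of 1 FPKM or more, and were tested. Eno2, Ldhb, Epas1 and Adm did not reach that level.

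RNA was sequenced from leukaemic spleen cells of 2 mice, numbered 4050 and 4182. Their genotype is labelled Dnmt3afl/fl, Flt3ITD/ITD, Mx1Cre, with the Dnmt3a state also written as heterozygous in the same labels. Controls and treated samples all carry these alleles: floxed Dnmt3a, a DNA methyltransferase gene, the activating internal tandem duplication of the receptor kinase gene Flt3, and Mx1-Cre, a recombinase driven by the interferon-inducible Mx1 promoter. Cells of each mouse were thawed and recovered for 24 hours with SCF, IL6 and IL3. They were then cultured for 3 days with vehicle (control, n = 2) or with 10 µg/ml R848 (n = 2). R848 is an imidazoquinoline agonist of the RNA sensor TLR7. The age and sex of the animals were not used here, and no wild-type cells were analysed here.

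Hypoxia-inducible factor 1 is a pair of proteins, HIF-1α and ARNT. With oxygen present, the EGLN prolyl hydroxylases mark HIF-1α and the VHL ubiquitin ligase complex sends it to the proteasome, so much of its control lies in protein stability, which RNA does not show. The factor is known to raise glucose transporters, most glycolytic enzymes, lactate dehydrogenase A and pyruvate dehydrogenase kinase 1. Macrophages activated through Toll-like receptors are known for a rise in glycolysis, and the RNA of Hif1a can rise in them as well.

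The values are linear levels named FPKM (reads per length and depth) by the authors. The processing notes name kallisto, and the sums are nearly equal in all samples, as they would be for TPM (also per length, scaled to a fixed sum), so the unit may be TPM, and FPKM is kept here as the authors' name. Differences are R848 minus control on the log2(FPKM + 1) scale. Calls were made with limma over 12612 genes at an adjusted p of 0.05, with 2 samples a group. The sums ran from 950530 to 962001 a sample, and read depth is unknown. In the R848 sample of mouse 4182, 4 very abundant and unequal rows (Gm12913, Gm15662, Lars2 and Zrsr1) held 12.2% of the summed level, against 1.12% in the R848 sample of mouse 4050 and 2.58% and 2.23% in the controls. The median difference over all tested genes was 0.00 in mouse 4050 and -0.16 in mouse 4182. Because a bulk sample mixes cells, fewer cells of a type and less RNA per cell cannot be told apart. Set against the label of acute myeloid leukaemia, some myeloid genes were at high levels: Mpo was at 1475 and 1533 FPKM in control and 1281 and 1052 with R848, and Elane at 969, 1459, 1063 and 860 in the same order. Other genes of the leukaemia marker list were low: Kit ran from 6.67 to 15.4 FPKM and Cd34 from 12.1 to 39.9. Flt3, on the same list, was at 1.57 and 1.92 in control and 0.331 and 0.0942 with R848, and was not tested. Ptprc, the pan-leukocyte antigen, was low in all 4 samples, from 1.27 to 2.69 FPKM. Tlr7, the gene of the sensor, was at 2.30 and 2.95 FPKM in control and 2.86 and 4.31 with R848 (log2 difference 0.33, limma adjusted p = 0.707).

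With R848, Hif1a rose and Ankrd37, a hypoxia-induced ankyrin repeat gene, fell. These were the calls among the 36 tested members, 1 higher (1.47% of all tested genes were) and 1 lower (0.381% of all). With the mouse as a block, which uses that both samples of a number come from the same animal, Hif1a was still the called member that rose (3.40% of all genes rose), and Ankrd37, Bnip3 and Aldoc fell (1.90% of all fell). The standard error (SE) changed little with the block, to 0.15 from 0.16 for Hif1a and to 0.18 from 0.20 for Ankrd37. With so few samples, the blocked fit leans on the variance that limma shares across genes. Most other members lay lower with R848 by amounts that did not pass. At an unadjusted p under 0.05 by limma, 11 members were lower (6.33% of all genes) and 1 was higher (5.20% of all). Taken against the median of all tested genes (-0.08), 29 of 36 members lay below it, 28 with quantile normalization and 29 with median log ratio centring. With 1 sample left out the number ran from 24, without the control of mouse 4182, to 29, without that of mouse 4050. By definition as many genes lie above the median as below it. In both mice 24 of 36 were lower (38.8% of all genes), 4 were higher (22.1%) and 8 had opposite signs. Both R848 samples lay below both controls for 22 members (28.8% of all genes) and above them for 3 (13.5%).

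**Figure D1:**
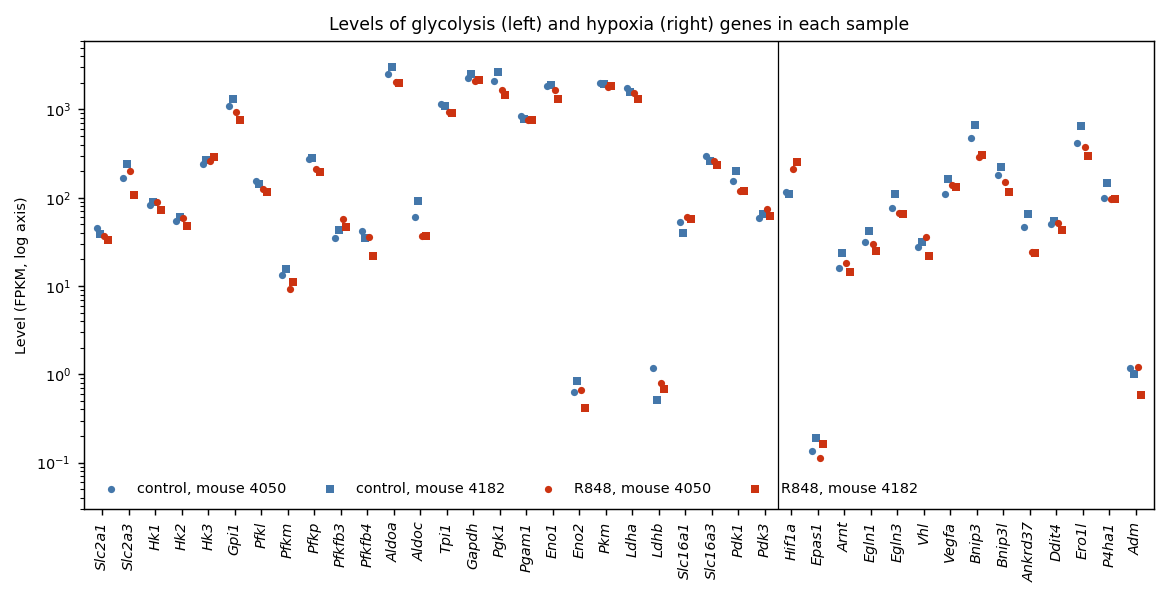
Level of the 40 genes in each sample, in FPKM on a log axis, with glycolysis genes left and hypoxia genes right of the line; circles are mouse 4050, squares mouse 4182, blue control and red R848. For Hif1a both red points lie above both blue points (212 and 255 against 115 and 110), and for Ankrd37, Bnip3 and Aldoc both lie below.

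Hif1a encodes the oxygen-regulated subunit and lies on GRCm38 chromosome 12, 73901375 to 73947530, plus strand. Its level was 115 and 110 FPKM in the controls of mice 4050 and 4182, and 212 and 255 with R848. Both treated samples were thus well above both controls, and the controls were close to each other. The means were 113 ± 3.80 and 234 ± 30.7 FPKM (SD, n = 2 each). The log2 difference was 1.04 (SE 0.16) with a limma adjusted p of 0.0255, with 0.87 in mouse 4050 and 1.21 in mouse 4182. With the mouse as a block the limma adjusted p was 0.00103. Without the block the call ended under quantile normalization (limma adjusted p = 0.0860), median log ratio centring (0.0720), the 4 abundant rows left out (0.0735), an untrended variance prior (0.0605) and no filter on low values (0.209). Leaving out either R848 sample ended it too (0.0791 without mouse 4050, 0.208 without mouse 4182), while the log2 difference stayed between 0.90 and 1.17 over all settings. With the block it passed under each of the first 3 rescalings, at adjusted p of 0.0126, 0.00881 and 0.00853 by limma, fits that called 3.89%, 4.35% and 4.33% of all genes. Exons of Hif1a overlap the same-strand gene Gm49321, which had no value here, and the opposite-strand gene Gm15283. Gm15283 was at 10.3 and 14.6 FPKM in control and 10.3 and 11.7 with R848. No source used here gives the strand setting of the quantification.

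The partner of Hif1a did not pass the test, and its paralogue was too low to be tested. Arnt, the partner subunit, was at 15.9 and 23.7 FPKM in control and 18.3 and 14.6 with R848, and the groups overlapped. Its log2 difference was -0.24 (SE 0.24, limma adjusted p = 0.776), at 0.19 in mouse 4050 and -0.67 in mouse 4182. Epas1, which encodes HIF-2α, was between 0.113 and 0.191 FPKM in all 4 samples.

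The genes that limit the factor were lower or mixed, with none past the test in either fit. Egln1, the main prolyl hydroxylase of normal oxygen, was at 31.6 and 42.4 FPKM in control and 29.8 and 24.7 with R848 (log2 difference -0.42, limma adjusted p = 0.511). Egln3, a hydroxylase that HIF itself induces, was at 76.0 and 111 in control and 66.6 and 65.3 with R848 (-0.47, limma adjusted p = 0.446, and 0.175 with the block). For both enzymes the treated samples lay below the controls, with most of the gap in mouse 4182. Vhl, the substrate receptor of the ligase, was at 27.7 and 31.7 FPKM in control and 35.8 and 21.8 with R848, so the mice differed in direction, at 0.36 and -0.52.

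Among the members that are targets of the factor, Ankrd37 was called, and it fell. Ankrd37 (chromosome 8, 45996902 to 46005707, minus strand) was at 46.2 and 65.3 FPKM in control and 24.2 and 23.9 with R848. The treated samples were nearly equal, and the controls differed from each other. The log2 difference was -1.16 (SE 0.20, limma adjusted p = 0.0374, and 0.00144 with the block), at -0.91 and -1.42 in mice 4050 and 4182. Without the block the call ended under the same 3 rescalings (limma adjusted p = 0.113, 0.101 and 0.0927), the untrended prior (0.0688), no filter (0.297), and without any single sample except the control of mouse 4050 (0.115 without the control of mouse 4182, 0.202 and 0.269 without the R848 sample of mouse 4050 and 4182). With the block it passed under all 3 rescalings, with adjusted p from 0.00779 to 0.00882 by limma. Exons of Ankrd37 overlap the opposite-strand genes Ufsp2, at 109 and 121 FPKM in control and 96.2 and 102 with R848, and Lrp2bp, at 0.985 and 0.835 in control and 0.420 and 0.304 with R848.

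Bnip3, a mitochondrial protein that starts the removal of mitochondria by autophagy (chromosome 7, 138890836 to 138909519, minus strand), was at 477 and 658 FPKM in control and 291 and 307 with R848. Both treated samples were below both controls, and the log2 difference was -0.90 (SE 0.19), at -0.71 and -1.10 in mice 4050 and 4182. It did not pass without the block (limma adjusted p = 0.0783) and passed with it (0.00341), also under the 3 rescalings (0.0112 to 0.0146). Bnip3l, its relative with the same role, was at 180 and 221 in control and 150 and 116 with R848 (-0.59, limma adjusted p = 0.260, and 0.0835 with the block). Exons of Bnip3 overlap the opposite-strand gene Gm45507, which had no value here.

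Other HIF targets on the list did not pass in either fit. Ero1l, an oxidase of protein folding in the endoplasmic reticulum, was at 415 and 647 FPKM in control and 378 and 300 with R848, a log2 difference of -0.62 made mostly in mouse 4182 (-0.14 and -1.11; limma adjusted p = 0.356). P4ha1, a collagen prolyl hydroxylase subunit, was at 98.2 and 147 in control and 97.9 and 95.9 with R848. Its difference was 0.00 in mouse 4050 and -0.61 in mouse 4182. Ddit4, an inhibitor of mTORC1 signalling, was between 43.2 and 54.7 in all samples. Vegfa, the vascular growth factor, was at 109 and 165 in control and 140 and 132 with R848, with a log2 difference of 0.02, and Adm, the vasodilator adrenomedullin, was at most at 1.22.

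The promoters of Ankrd37, Bnip3, Aldoc and Hif1a are shown because these members passed the test with the block, 3 lower and 1 higher. Each is the RefSeq window of GRCm38.p6 from 250 bases before to 50 after a transcript start, 5′ to 3′ on the gene's strand, with the HIF core ACGTG, or CACGT where it lies on the other strand, in capitals.
Ankrd37, chr8:45999801-46000100, minus strand: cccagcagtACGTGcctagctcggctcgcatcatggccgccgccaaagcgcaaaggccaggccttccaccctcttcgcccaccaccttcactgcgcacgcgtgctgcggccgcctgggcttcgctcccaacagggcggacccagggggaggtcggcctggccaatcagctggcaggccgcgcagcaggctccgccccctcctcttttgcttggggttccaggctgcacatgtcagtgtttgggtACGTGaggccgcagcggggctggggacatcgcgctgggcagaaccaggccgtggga
Bnip3, chr7:138909457-138909756, minus strand: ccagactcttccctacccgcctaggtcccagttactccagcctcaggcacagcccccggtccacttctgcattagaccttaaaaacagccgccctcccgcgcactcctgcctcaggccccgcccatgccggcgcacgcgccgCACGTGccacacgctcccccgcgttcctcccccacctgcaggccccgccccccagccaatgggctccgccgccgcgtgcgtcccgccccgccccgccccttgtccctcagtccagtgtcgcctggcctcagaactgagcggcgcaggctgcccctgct
Aldoc, chr11:78322823-78323122, plus strand: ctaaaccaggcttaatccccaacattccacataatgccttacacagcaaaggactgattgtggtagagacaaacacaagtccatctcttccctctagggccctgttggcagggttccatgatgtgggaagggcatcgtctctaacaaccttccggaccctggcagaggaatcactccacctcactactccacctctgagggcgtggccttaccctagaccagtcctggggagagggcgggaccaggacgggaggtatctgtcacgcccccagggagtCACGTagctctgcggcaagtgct
Hif1a, chr12:73907617-73907916, plus strand: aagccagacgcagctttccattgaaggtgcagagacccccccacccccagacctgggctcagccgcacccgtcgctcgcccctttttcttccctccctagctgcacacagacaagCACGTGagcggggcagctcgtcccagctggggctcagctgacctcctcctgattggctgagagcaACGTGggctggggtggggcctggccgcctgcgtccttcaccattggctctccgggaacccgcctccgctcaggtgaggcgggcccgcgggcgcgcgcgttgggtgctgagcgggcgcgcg
The letters occur in the windows of all 4 genes, the 3 that fell and Hif1a, which rose. In Bnip3 and Hif1a a CACGTG reads the same on both strands, so 2 overlapping matches were counted there. A later Aldoc window, at 78323948 to 78324247, held no match. Windows were matched for 37 members, and Slc2a3, Bnip3l and Epas1 had no entry. Of 51 member windows 28 held the letters on either strand (54.9%), against 19.6% of all 32851 windows. The variant GCGTG, which was not put in capitals, stood in 58.8% against 32.4%. On either strand it was counted 2, 3 and 2 times in the printed windows of Ankrd37, Bnip3 and Aldoc, and 0 times in that of Hif1a. The 4 windows printed were rich in G and C, from 56.3% to 71.7%, and these shares were not matched for base composition. Some genes gave several windows, which can overlap, as for Aldoa. By gene, 25 of 37 held the letters. Many members are on the list as known targets of HIF, so a higher share than over all windows was no test.

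Glycolytic genes were among the most abundant RNAs of these cells. Of 157 genes with a mean over 1000 FPKM, 8 were members, all of glycolysis, and the 26 glycolysis genes together held 1.81% and 1.97% of the summed level in control and 1.58% and 1.45% with R848. No glycolysis gene passed without the block (1.47% of all genes were higher and 0.381% lower). With it 1, Aldoc, passed and was lower (4.17%, against 1.90% of all genes). Of 24 tested, 17 were lower in both mice (70.8%, against 38.8% of all genes) and 3 were higher (12.5%, against 22.1%).

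Glucose enters through the SLC2A transporters. Slc2a3 (GLUT3) was at 168 and 240 FPKM in control and 203 and 107 with R848. The R848 samples lay on either side of the control of mouse 4050, and the difference was 0.27 in mouse 4050 and -1.15 in mouse 4182, the widest split between the mice of any member (limma adjusted p = 0.671). Slc2a1 (GLUT1) was at 45.0 and 38.6 in control and 36.7 and 33.6 with R848 (-0.24, limma adjusted p = 0.665).

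Hexokinases trap glucose by phosphorylation. Hk3, the isoform known from myeloid cells, gave 64.1% of hexokinase levels in both controls and 63.8% and 70.8% with R848. It was at 243 and 267 FPKM in control and 262 and 293 with R848 (0.12, limma adjusted p = 0.833). Hk1 and Hk2 ran from 73.4 to 90.0 and from 47.4 to 60.1 FPKM, with opposite signs in the mice. Gpi1, which turns glucose 6-phosphate into fructose 6-phosphate, was at 1106 and 1308 in control and 946 and 753 with R848, so both treated samples were below both controls (-0.51, limma adjusted p = 0.324).

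Phosphofructokinase makes the committed step, and all 3 subunit genes were lower in both mice without a call. Pfkp, the platelet-type subunit and the most abundant, was at 274 and 284 FPKM in control and 211 and 197 with R848 (-0.45, SE 0.15, limma adjusted p = 0.264, and 0.120 with the block). Pfkl, the liver type, was at 155 and 142 in control and 124 and 116 with R848 (-0.30), and Pfkm, the muscle type, at 13.2 and 15.4, and 9.27 and 11.0 (-0.46). Pfkp made up between 60.8% and 64.3% of the 3 genes' summed level in every sample.

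The 2 regulatory enzymes that set the level of the activator fructose 2,6-bisphosphate had differences of opposite sign, each with its sign in both mice. Pfkfb3, whose kinase activity drives glycolysis, was at 35.3 and 43.2 FPKM in control and 58.2 and 46.2 with R848 (0.40, SE 0.19, limma adjusted p = 0.497). Pfkfb4 was at 41.9 and 35.1 in control and 35.6 and 21.8 with R848 (-0.45, SE 0.25, limma adjusted p = 0.570, and 0.226 with the block). Neither passed, and the share of Pfkfb3 in the sum of both was 45.7% and 55.1% in control and 62.0% and 68.0% with R848, groups that do not overlap.

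Aldolases split the sugar. Aldoc, the minor isoform (chromosome 11, 78322968 to 78327781, plus strand), was at 60.4 and 93.0 FPKM in control and 37.1 and 37.0 with R848. The treated samples were nearly equal and both were below the controls, which differed from each other. The log2 difference was -1.00 (SE 0.22, limma adjusted p = 0.0905, and 0.00460 with the block), at -0.69 and -1.31 in mice 4050 and 4182, and the blocked call held under the 3 rescalings (0.0185 to 0.0212). Aldoa, which made up at least 97.0% of both isoforms in each sample, was at 2512 and 3047 in control and 2040 and 1984 with R848 (-0.46, limma adjusted p = 0.350).

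The genes of the lower pathway did not pass in either fit. Pgk1, the first enzyme to make ATP, was at 2079 and 2668 FPKM in control and 1655 and 1455 with R848 (-0.60, SE 0.19, limma adjusted p = 0.239, and 0.0903 with the block). Its neighbours in the pathway, Tpi1, Gapdh, Pgam1 and Pkm, had log2 differences of -0.28, -0.15, -0.10 and -0.12, with limma adjusted p from 0.553 to 0.873. Eno1 was at 1828 and 1878 in control and 1679 and 1297 with R848 (-0.33). Under quantile normalization Gapdh and Pkm had differences above 0 (0.02 and 0.06). Many of these enzymes have processed copies elsewhere in the mouse genome, and no source used here says how reads were shared with them.

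Ldha made up nearly all lactate dehydrogenase RNA, and both lactate transporter genes were measured. Ldha was at 1735 and 1564 FPKM in control and 1520 and 1313 with R848 (-0.22, limma adjusted p = 0.699), and Ldhb was at most at 1.17. The lactate exporter Slc16a3 (MCT4) was at 299 and 259 in control and 262 and 232 with R848 (-0.18). Slc16a1 (MCT1) was at 52.5 and 39.7 in control and 60.1 and 57.2 with R848 (0.35, SE 0.18, limma adjusted p = 0.545), with both treated samples above both controls.

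Pyruvate dehydrogenase kinases hold pyruvate out of the mitochondrial oxidation route. Pdk1, the HIF-induced kinase, was at 156 and 202 FPKM in control and 120 and 118 with R848, both below the controls (-0.57, SE 0.18, limma adjusted p = 0.233, and 0.0582 with the block). Pdk3 was at 59.3 and 65.1 in control and 73.8 and 62.6 with R848 (0.13). The share of Pdk1 in their sum was 72.4% and 75.7% in control and 61.9% and 65.4% with R848.

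**Figure D2:**
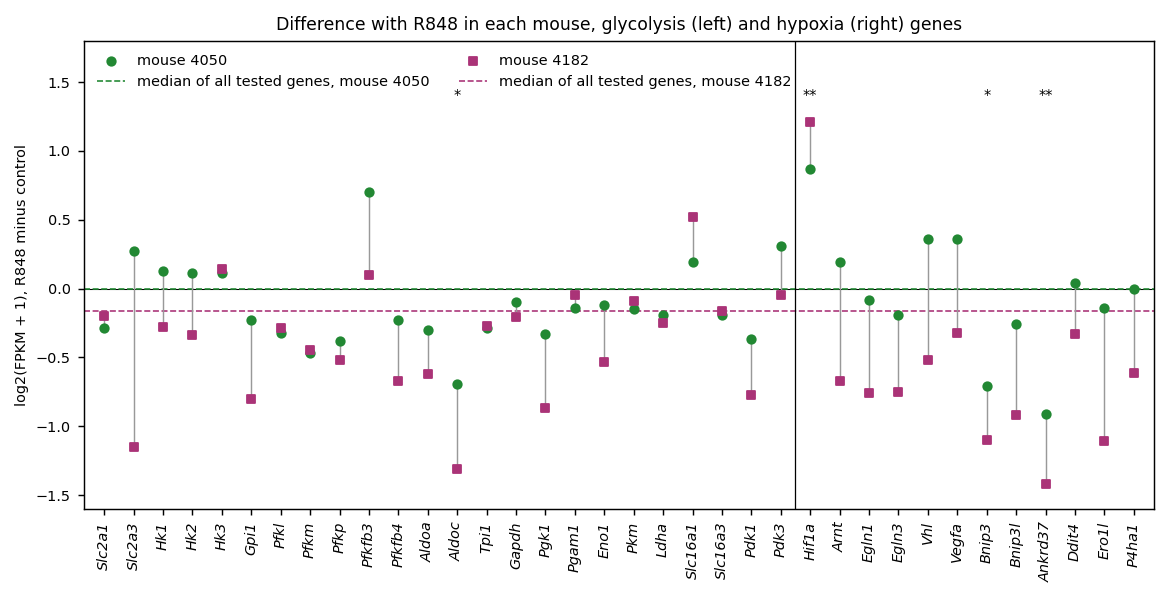
Difference of log2(FPKM + 1), R848 minus control, for the 36 tested genes, with mouse 4050 as green circles, mouse 4182 as purple squares and dashed lines at each mouse's median over all tested genes (0.00 and -0.16); 1 star marks an adjusted p under 0.05 with the mouse as a block, and 2 stars mark it also without the block. Hif1a stands above 0 in both mice, and Ankrd37, Aldoc and Bnip3 lie lowest in mouse 4050 and at -1.42, -1.31 and -1.10 in mouse 4182.

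Set against each other, the hypoxia genes differed more between the mice than the glycolysis genes. The median log2 difference of the 24 tested glycolysis genes was -0.26, with -0.19 in mouse 4050 and -0.28 in mouse 4182. That of the 12 tested hypoxia genes was -0.36, with -0.04 and -0.71. Over all 12612 genes it was -0.08, with 0.00 and -0.16. The difference was lower in mouse 4182 than in mouse 4050 for 11 of 12 hypoxia genes, Hif1a being the exception, and for 15 of 24 glycolysis genes, against 66.2% of all genes. With 1 pair per mouse, a difference between the mice could not be tested.

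The mice differed in the hypoxia genes of the control samples. In control, 11 of 12 hypoxia genes, all but Hif1a, were higher in mouse 4182 than in mouse 4050, with a median of 0.48 on the log2 scale, against 49.5% of all genes and a median of 0.00. Ero1l, Vegfa, P4ha1 and Egln3 were higher there by 0.64, 0.59, 0.57 and 0.54. In R848, 2 of 12 were higher in mouse 4182, with a median of -0.17, against 26.0% of all genes and a median of -0.16. Without the control sample of mouse 4182 the median difference of the hypoxia genes was -0.14 and that of the glycolysis genes -0.30. Without the control sample of mouse 4050, which leaves 1 control, they were -0.61 and -0.24. The log2 differences of Pgk1 and Ero1l were then -0.78 and -0.94. Across the 36 members the differences in the 2 mice correlated at r = 0.661 (Spearman 0.474), against 0.559 and 0.385 over all tested genes, where members share the scale of each sample.

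**Figure D3:**
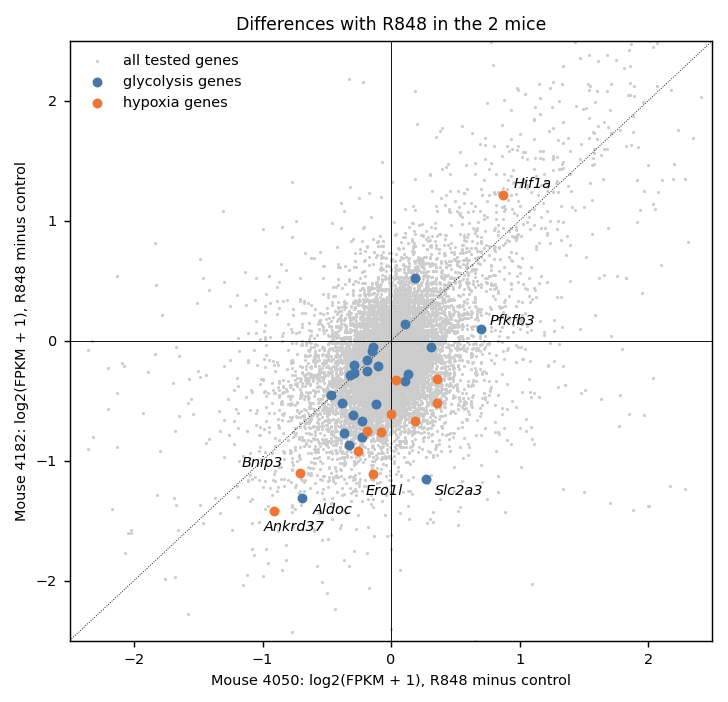
Difference of log2(FPKM + 1), R848 minus control, in mouse 4182 against mouse 4050; grey points are all tested genes within the axes, blue points glycolysis and orange points hypoxia genes, and the dotted line marks equal differences. Orange points other than Hif1a lie below the line, with Slc2a3 the blue point farthest below it (0.27 and -1.15).

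Related pathways were measured from lists written alongside the members. Of 39 other tested HIF targets, 1 rose and 1 fell by limma (2.56% each, against 1.47% and 0.381% of all genes). In the blocked fit 2 rose and 7 fell (5.13% and 17.9%, against 3.40% and 1.90%). Of the 39, 29 were lower in both mice (74.4%, against 38.8%), and the median difference was -0.38. Some of these genes had been seen in earlier results of these data. Nos2, the inducible nitric oxide synthase, rose from 1.19 and 1.14 FPKM to 11.5 and 11.4 (log2 difference 2.52, limma adjusted p = 0.00254), and passed under every rescaling and with any single sample left out, though not with no filter (0.148). Cox4i2, a hypoxia-induced subunit of cytochrome oxidase, fell from 11.5 and 14.0 to 4.44 and 5.47 (-1.20, limma adjusted p = 0.0363). Without the block its call ended under the 3 rescalings (0.0939 to 0.116), with no filter (0.297) and without any single sample except the control of mouse 4050 (0.107 to 0.210). With the block it passed under all 3 rescalings (limma adjusted p from 0.00861 to 0.0129). Selenbp1 and Vldlr, a selenium-binding protein and a lipoprotein receptor, had differences of -1.32 and -1.24 and passed with the block (limma adjusted p = 0.00146 and 0.00513).

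The other metabolic lists held no called gene in either fit of limma. Of 21 other genes of glycolysis and glucose uptake, an unadjusted p under 0.05 was reached by 2 that were higher and 4 that were lower (9.52% and 19.0%, against 5.20% and 6.33% of all genes), and the median was -0.30. The pentose phosphate pathway, which makes NADPH, had 0 of 10 at that level by limma and a median of -0.10. Genes of pyruvate dehydrogenase and pyruvate entry (11) had 0 higher and 1 lower and a median of -0.01, and those of glycogen metabolism (13) had 0 higher and 2 lower and a median of -0.13. Among 17 other HIF regulators 0 were higher and 3 lower, with a median of -0.19, and among 18 MYC and mTORC1 regulators 0 were higher and 3 lower, with a median of -0.17.

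**Figure D4:**
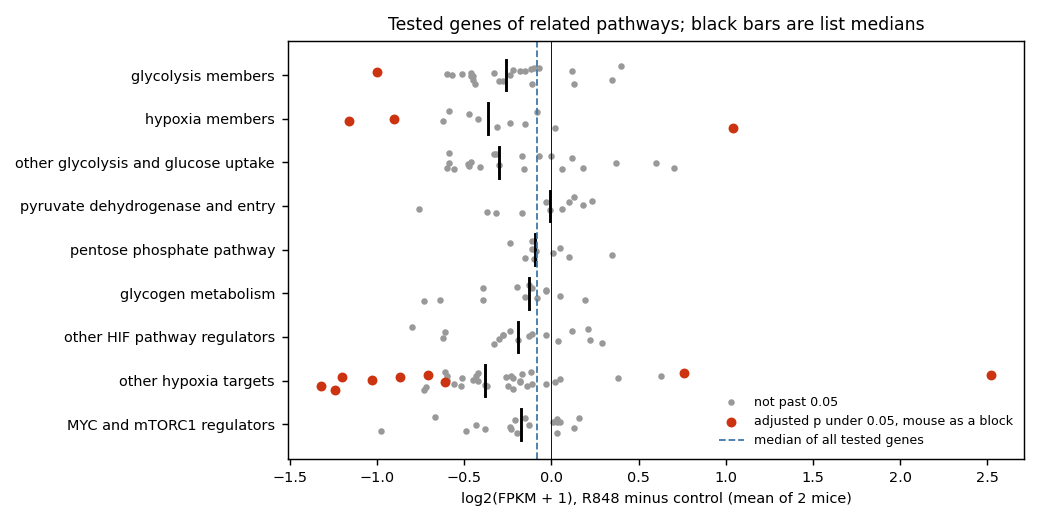
Difference of log2(FPKM + 1), R848 minus control, averaged over 2 mice, for each tested gene of the members and of related lists; red points passed limma with the mouse as a block, black bars are list medians and the dashed line is the median of all tested genes (-0.08). The other hypoxia targets and the hypoxia members have the lowest medians, -0.38 and -0.36.

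Markers of other cells moved with treatment. Macrophage genes went both ways, 5 higher and 3 lower of 12 tested, with summed levels of 1388 and 802 FPKM in control and 789 and 865 with R848. Plasma cell genes rose for 4 of 7, with sums of 536 and 687 against 1336 and 1169, B cell genes for 3 of 5 (15.0 and 17.2 against 44.1 and 44.6) and T cell genes for 2 of 6 (9.54 and 8.91 against 17.2 and 22.1). Platelet genes rose for 1 of 5, with sums of 110 and 95.5 against 455 and 217. Single genes held much of these sums. Xbp1 was at 515 and 667 FPKM in control and 599 and 543 with R848, and Igkc at 4.90 and 2.74, and 601 and 507. Among platelet genes Pf4 was at 68.5 and 56.1 in control and 354 and 183 with R848, and Itga2b at 21.8 and 20.2, and 25.6 and 14.4. With the mouse as a block the counts were 6 higher and 3 lower for macrophage genes, 4 higher for B cell, 3 higher for T cell, 4 higher for plasma cell genes, and 2 higher and 1 lower for platelet genes, where Itgb3 fell (log2 difference -0.92, limma adjusted p = 0.0277). Of 10 neutrophil genes 0 were called by limma. An unadjusted p under 0.05 was reached by 0 that were higher and 1 that was lower (5.20% and 6.33% of all genes). The neutrophil sums were 81212 and 64628 against 92054 and 50501. The NK cell list, the erythroid list and the joint endothelial and stromal list had 2, 2 and 1 tested genes and no call. Their sums were 24.5 and 58.0 against 47.0 and 43.8 FPKM, 31.6 and 9.25 against 58.0 and 4.97, and 115 and 122 against 138 and 112. The last sums were nearly all Pecam1 (115 and 122 against 137 and 112), while the collagen gene Col1a1 was at most at 0.529 FPKM. The red cell gene Slc4a1 was listed at 0 in all 4 samples, and the NK receptor gene Ncr1 at 0 in 3. The myeloid leukaemia list had no call without the block and 2 higher and 1 lower of 17 with it. With the block, the monocyte genes Csf1r and Ly6c2 rose (68.3 and 52.5 against 111 and 82.5 FPKM, and 366 and 381 against 450 and 995, limma adjusted p = 0.0215 and 0.0398), and Cd34, a progenitor antigen, fell (26.6 and 39.9 against 12.1 and 17.4, limma adjusted p = 0.00187). The part of these cells in the differences of glycolysis and hypoxia genes was not tested.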

How the data were processed

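RNA sequencing of 4 samples gave 1 table. The submitters' processing notes name kallisto and mm10, and no source used here gives versions, the annotation or how transcripts became genes. The authors deposited log2 values named log2 FPKM, whose lowest value was 0, and the labels' protocols name both ribosomal RNA depletion and an mRNA kit. The values were taken as log2(FPKM + 1). They hold no counts, so depth is unknown and no counting interval is given.

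Of 28192 rows, 27 whose names had become dates were dropped, as were 91 further rows of 90 repeated symbols, keeping the most abundant row. The 12612 genes averaging 1 FPKM or more were fitted with limma 3.58.1 in R 4.3.3, with a trended variance prior (5.27 prior and 2 residual degrees of freedom), two-sided, and Benjamini-Hochberg adjustment over all of them. An exact permutation test of 2 against 2 samples cannot go below p = 0.333 (two-sided) and was not used. The labels name the mouse of each sample, so the numbers pair the samples, and across genes the deviations from the group means correlated at 0.289 between samples of 1 mouse. The unblocked fit was the main one, and the blocked fit is given beside it where it changes a call. The blocked fit leaves 1 residual degree of freedom, so its p-values lean more on the variance prior. It was not run with the untrended prior, without the filter or with a sample left out. The 2 samples of a group come from separate mice. Splits into batches were not named in the labels.

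The members and lists were chosen with earlier results of these data known, so counts over them describe them and carry no test. All 40 members were named; of the other lists, called genes were named, at most 4 a list by the blocked p, some being given by count alone. In other lists, genes were also matched by older symbols. Coordinates are from GENCODE M21 on GRCm38, the build of mm10, and promoter windows from RefSeq. The fit was tested on simulated data. Plots were made in Python 3.11.15 (matplotlib 3.10.9). Alternatives were other normalizations, pseudocounts, filters, variance priors, treatment of repeated symbols, the block, and leaving out each sample, where the lone sample of a group is assumed to vary like the other group. Leaving out the 4 abundant rows (at least 5000 FPKM in some sample and 5 times the lowest) was chosen after seeing the data.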

Additional observations from a re-analysis of the deposited data

How the results depend on the processing

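Without the block, the calls of Hif1a and Ankrd37 depended on the setting, and with the mouse as a block they did not under the 3 rescalings tried. The members called higher and lower went from 1 and 1 to 0 and 0 under quantile normalization, median log ratio centring, no filter on low values, the untrended variance prior and the 4 abundant rows left out (an alternative added after seeing the data). With no filter, limma called 0 of all genes, with 1880 at an unadjusted p under 0.05. Leaving out 1 sample moved the differences of Pfkfb4 (from -0.79 to -0.10) and Slc16a1 (from 0.15 to 0.55), which were not called. With the mouse as a block the counts were 1 and 3, alone and with each of quantile normalization, median log ratio centring and the 4 rows left out.

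Over all genes, the counts called higher and lower were 185 and 48, and went to 76 and 12 with quantile normalization, 91 and 15 with median log ratio centring and 92 and 17 with the 4 rows left out. With the replicate block they were 429 and 240, with the block and quantile normalization 354 and 136, with the block and median log ratio centring 404 and 145, and with the block and the 4 rows left out 395 and 159. Leaving out 1 sample gave 46 to 259 higher and 10 to 136 lower genes, and 0 to 1 higher and 0 to 5 lower members. Without the R848 sample of mouse 4050 the counts over all genes were 78 and 10, and without that of mouse 4182 46 and 10; 0 members were then called by limma. Leaving out any sample, control or R848, leaves fewer degrees of freedom, and the cause of these counts was not tested.

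The glycolysis median (-0.26) was -0.17 with quantile normalization and -0.19 with median log ratio centring, each with or without the block, and ran from -0.32 to -0.13 with 1 sample left out. The hypoxia median (-0.36) ran from -0.61 to -0.14 there, and from -0.37 to -0.29 under the other settings. Rescaling moved the median of all genes from -0.08 to between -0.04 and 0.00.

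Among uncalled members, Gapdh (0.02), Pkm (0.06) and Vegfa (-0.02) changed sign with quantile normalization, with or without the block. With 1 sample left out, Vegfa ran from -0.27 to 0.32, Arnt from -0.51 to 0.04, Vhl from -0.43 to 0.27, Slc2a3 from -0.90 to 0.02, Hk1 from -0.22 to 0.07 and Hk2 from -0.26 to 0.04. With 2 samples a group and no read depth, differences of members that missed the threshold are not shown to be absent.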
